A study of Mus musculus with 6 samples.

Results

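Transcripts of *Pmel* and 5 genes of its processing, sorting or family were followed in B16-F10 cells sorted into high-pigmented cells (HPC) and low-pigmented cells (LPC). The 6 genes, *Pmel*, *Bace2*, *Cd63*, *Mlana*, *Tspan10* and *Gpnmb*, were chosen by name for these roles, matched by mouse symbol, and are 6 of 18324 gene rows of the count table. They were chosen with earlier results of these data known. B16-F10 is an established mouse melanoma line from which pale and dark cells can be obtained, and sorting used the scatter of light by intracellular melanin. Each population was sequenced as 3 libraries from mRNA ends, with no treatment named beside the sort. One HPC and one LPC library share a suffix in their titles, giving 3 pairs, called pairs 1, 2 and 3. The labels do not say what the suffix marks, or whether pairs came from separate cultures, so p values measure only the spread between these libraries. All libraries come from this single line, grown in serum, and none comes from normal melanocytes.

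Melanosomes mature from endosomes. PMEL, the product of *Pmel*, is a membrane protein that is cut by proteases in early melanosomes, and its lumenal fragments assemble into amyloid-like fibrils on which melanin is later deposited. BACE2 is one of the proteases that cut PMEL. The tetraspanin CD63 sorts the lumenal part of PMEL to intralumenal vesicles. MLANA (MART-1) is a small membrane protein that binds PMEL and is needed for its maturation. GPNMB is a glycoprotein related to PMEL in sequence, found in melanosomes and lysosomes. TSPAN10 is a tetraspanin of the group that governs the exit of the protease ADAM10 from the endoplasmic reticulum.

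The genes lie at separate loci of GRCm38, the build named in the submitters' processing notes, and each is annotated as protein-coding on the forward strand in GENCODE. *Pmel* spans chr10:128704195-128720238 and *Cd63* chr10:128900989-128912822. *Bace2* spans chr16:97356742-97442936, *Tspan10* chr11:120442644-120446950, *Mlana* chr19:29697824-29708634 and *Gpnmb* chr6:49036546-49070929. The counts are of reads in exons near the polyadenylated end, and they do not scale with transcript length. The 6 genes are compared here between libraries rather than with one another in level. *Pmel* shares 105 exonic bases with *Dgka* and 34 with *Cdk2*, both on the opposite strand, and the use of strand in counting is not given in the sources used here. *Cd63* shares stretches of at least 100 bases and 95% identity with transcripts of 41 genes, of which 31 are counted in the table. The longest, 858 bases, joins it to the pseudogene *Cd63-ps*, so the counts of *Cd63* are uncertain to that extent. The row of *Cd63-ps* held 9470 counts over all libraries together, and that of *Cd63* held 1907 to 28207 in single libraries. The stretches shared with the other genes were 160 bases or shorter. The other 4 genes had no such overlap or copy.

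Promoter windows of RefSeq (GRCm38.p6, 250 bases before to 50 after a start) are shown for the 3 genes that have one in that table, because 2 of them, *Tspan10* and *Gpnmb*, were called in pairs 1 and 3 in the test described later and *Cd63* was not. Windows of *Pmel*, *Bace2* and *Mlana* were not analysed here. They are chr11:120442381-120442680 for *Tspan10*, chr6:49036268-49036567 for *Gpnmb* and chr10:128909095-128909394 for *Cd63*, all on the forward strand, and the last lies inside the annotated span of its gene. Capitals mark the match to the M-box TCATGTG, a form of the E-box that MITF, the master regulator of melanocytes, can bind.
Tspan10: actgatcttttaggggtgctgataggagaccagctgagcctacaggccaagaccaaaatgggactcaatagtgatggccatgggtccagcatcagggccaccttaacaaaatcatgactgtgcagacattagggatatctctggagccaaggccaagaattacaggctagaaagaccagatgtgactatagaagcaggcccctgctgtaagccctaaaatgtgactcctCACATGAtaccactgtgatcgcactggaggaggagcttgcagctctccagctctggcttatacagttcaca
Gpnmb: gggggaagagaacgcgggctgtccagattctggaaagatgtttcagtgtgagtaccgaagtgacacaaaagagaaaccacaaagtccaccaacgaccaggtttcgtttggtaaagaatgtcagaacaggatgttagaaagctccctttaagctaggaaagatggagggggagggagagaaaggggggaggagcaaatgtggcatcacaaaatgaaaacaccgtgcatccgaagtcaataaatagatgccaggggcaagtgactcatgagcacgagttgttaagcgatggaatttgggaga
Cd63: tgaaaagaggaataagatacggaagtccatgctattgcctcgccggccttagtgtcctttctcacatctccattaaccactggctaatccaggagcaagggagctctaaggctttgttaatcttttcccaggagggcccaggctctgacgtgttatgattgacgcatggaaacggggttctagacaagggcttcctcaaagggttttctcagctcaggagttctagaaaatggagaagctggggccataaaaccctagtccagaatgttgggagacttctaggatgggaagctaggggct

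The windows were searched on both strands for the E-boxes CACGTG and CATGTG and for TCATGTG, which contains the second. *Tspan10* held 1 match to TCATGTG, on the reverse strand, with its first base at position 230 of the window, 21 bases before the start. These letters occur in 3.77% of 32851 promoter windows of the same length, CATGTG in 14.2% and CACGTG in 7.15%. The windows of *Gpnmb* and *Cd63* held none of the 3. A match of letters is a description and says nothing of binding.

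Library depth lay between 3819605 and 7311131 gene counts. The libraries of pair 2 stood apart in composition: a single row, RP23-81C12.3, took 27.1% and 53.9% of gene counts there, against 3.54% to 5.03% in pairs 1 and 3. Mitochondrial ribosomal RNA took 7.69% and 12.2% in pair 2 and 1.51% to 1.99% elsewhere. Together the 6 genes made up 0.0712% of gene counts in the HPC and 0.152% in the LPC library of pair 2, and 0.647% to 1.18% in the other 4 libraries. Results are therefore given with and without pair 2. All 5 melanocyte markers examined (*Mitf*, *Sox10*, *Tyr*, *Tyrp1* and *Dct*) had counts in every library. Their summed levels were 4200 to 16500 CPM (counts scaled to the normalised library size) in HPC and 5900 to 14700 CPM in LPC. *Dct* gave most of each sum, with 6876 of 7211 counts in the HPC library of pair 2. *Tyr* had only 2 and 20 counts in the HPC and LPC libraries of pair 2 and 36 in the LPC library of pair 3, against 277 to 507 in the others. Macrophage markers, of which 5 of 11 had a row, summed to 13 to 35 counts in HPC and 5 to 47 in LPC libraries. As CPM the macrophage sums were 2.28 to 7.57 in HPC and 1.43 to 4.93 in LPC. The highest was in the HPC library of pair 2, and its part in the results was not tested. Fibroblast markers, with 5 of 8 rows, summed to 8 to 72 and 51 to 79 counts. In CPM these were 0.935 to 41.9 in HPC and 6.3 to 14.6 in LPC, the highest in the HPC library of pair 2; their part in the results of that library was not tested. The keratinocyte list had 1 row of 4, *Trp63*, with 42 counts in the HPC library of pair 2 and 0 in the others, and the T cell list 1 row of 4, *Cd4*, with at most 2 counts. In sorted bulk RNA a change in the share of cells that express a gene and a change in RNA per cell cannot be told apart.

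*Pmel* was higher in the HPC library of pairs 1 and 3 and lower in that of pair 2. Its level was 2176 CPM in the HPC and 1344 CPM in the LPC library of pair 1, and 3624 and 2073 CPM in pair 3. In pair 2 it was 148 and 222 CPM, from 255 and 775 counts. The levels of the populations overlap, because both libraries of pair 2 lie far below all others. Within pairs the ratio of high to low was 1.62 (95% interval 1.57 to 1.66) in pair 1 and 1.75 (1.72 to 1.78) in pair 3, and 0.670 (0.579 to 0.773) in pair 2. These exact binomial intervals, like those below, cover counting error only, and reads were not collapsed to molecules.

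*Bace2* had the same order of libraries at lower counts. It measured 73.2 and 36.0 CPM in the HPC and LPC libraries of pair 1, 145 and 69.0 CPM in pair 3, and 16.3 and 32.0 CPM in pair 2, where the HPC library held 28 counts. The ratio of high to low was 2.03 (1.72 to 2.40) in pair 1 and 2.11 (1.92 to 2.32) in pair 3. In pair 2 it was 0.509 (0.324 to 0.776). Set against each other, a comparison free of library scaling, *Pmel* had the smaller difference in pairs 1 and 3. Its high-to-low ratio was 0.796 times that of *Bace2* in pair 1 (95% interval 0.676 to 0.938), 0.830 times in pair 3 (0.754 to 0.913) and 1.32 times in pair 2 (0.850 to 2.04).

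*Cd63* varied least among the 6 genes between libraries. It measured 2346 and 1914 CPM in the HPC and LPC libraries of pair 1, 1110 and 1537 CPM in pair 2, and 3296 and 2961 CPM in pair 3. The highest library was 2.97 times the lowest among HPC and 1.93 times among LPC libraries, against 24.4 and 9.36 times for *Pmel*. The ratio of high to low was 1.23 (1.20 to 1.26) in pair 1, 0.722 (0.685 to 0.761) in pair 2 and 1.11 (1.10 to 1.13) in pair 3. In pairs 1 and 3 this gene thus differed in the same direction as *Pmel* by a smaller ratio, and the *Pmel* to *Cd63* count ratio was 1.32 (1.27 to 1.37) and 1.57 (1.53 to 1.61) times as high in the HPC library.

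*Mlana* was higher in the HPC library of each pair, but not by as much as *Pmel* in pairs 1 and 3. It measured 475 and 409 CPM in pair 1, 97.8 and 64.3 CPM in pair 2 and 583 and 511 CPM in pair 3, in the order high and low. The ratios were 1.16 (1.10 to 1.23), 1.52 (1.24 to 1.86) and 1.14 (1.10 to 1.19). The *Pmel* to *Mlana* count ratio was 1.39 (1.31 to 1.48) and 1.53 (1.47 to 1.60) times as high in the HPC library of pairs 1 and 3, and 0.441 (0.345 to 0.563) times in pair 2. A 2-sided exact sign-flip permutation test over 3 pairs allows no p below 0.25, so no test of this ratio was run.

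*Tspan10* showed the widest difference between pairs 1 and 3. It measured 139 and 83.8 CPM in the HPC and LPC libraries of pair 1 and 534 and 369 CPM in pair 3, so that pair 3 was 3.84 and 4.40 times as high. In pair 2 it measured 26.2 and 50.03 CPM, from 45 and 175 counts. Within pairs the ratio of high to low was 1.66 (1.48 to 1.85), 0.524 (0.369 to 0.730) and 1.45 (1.39 to 1.51) in pairs 1, 2 and 3.

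*Gpnmb* differed from the other 5 genes in the order of the pairs. It was highest in pair 1, with 1650 and 1092 CPM in the HPC and LPC libraries, and lower in pair 3, with 907 and 560 CPM, where the remaining genes were at their highest. In pair 2 it measured 183 and 166 CPM. Its ratio of high to low was 1.51 (1.47 to 1.56) in pair 1 and 1.62 (1.56 to 1.68) in pair 3, and in pair 2 it was 1.10 with an interval of 0.959 to 1.27 that includes 1. In pairs 1 and 3 its ratio stayed close to that of *Pmel*, with *Pmel* to *Gpnmb* count ratios 1.07 (1.03 to 1.12) and 1.08 (1.04 to 1.12) times as high in the HPC library.

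**Figure D1:**
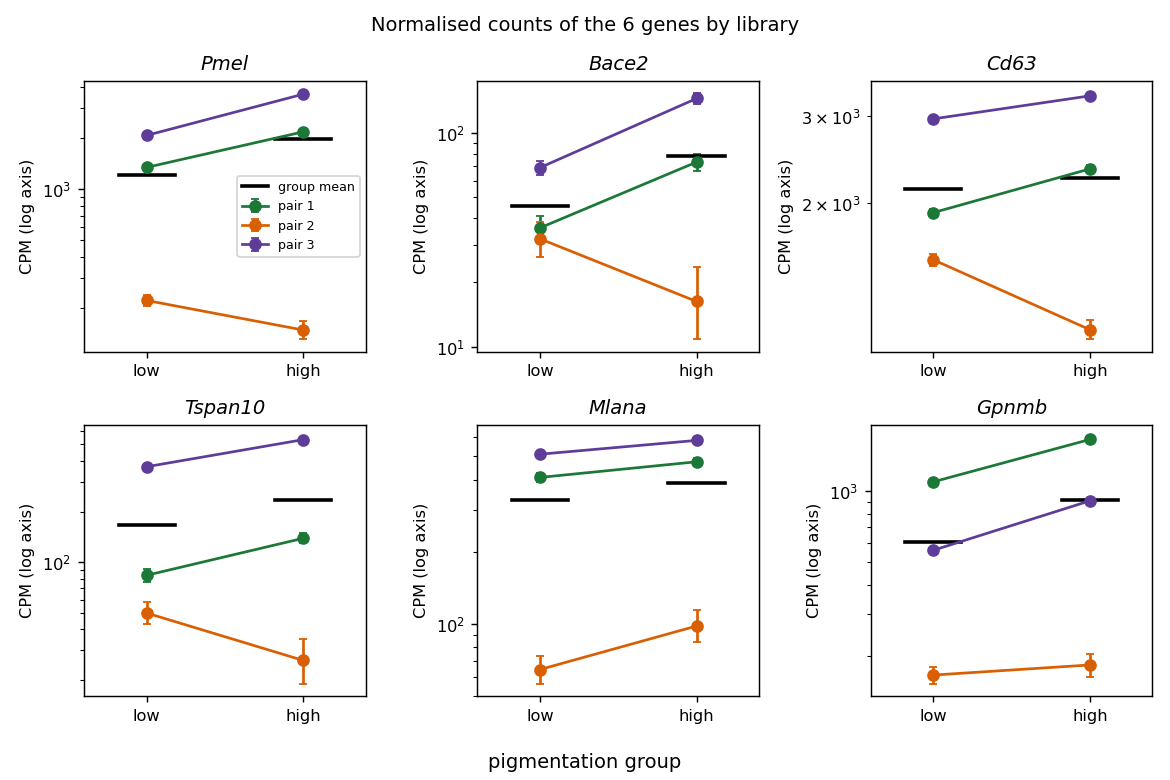
Level of each gene in CPM on a log axis in the LPC and HPC library of each pair, with lines joining a pair, bars for exact Poisson 95% intervals of the counts and black lines for group means (n = 3). All 6 genes slope upwards in pairs 1 and 3, and the pair 2 libraries are the lowest of their group for every gene.

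All 6 genes were thus higher in the HPC library of pairs 1 and 3, by medians of 0.65 and 0.61 on the log2 scale. Over the 11324 genes tested the median was 0.02 and -0.002, and 51.3% and 49.8% were higher. In pair 2, 4 of the 6 genes were lower in HPC, with a median of -0.52. Over all genes tested the median was -0.21 in that pair, and only 40.8% were higher in HPC. *Mlana* and *Gpnmb* were the 2 genes higher in all 3 pairs, a pattern held by 12.9% of genes tested. This rests on the scaling of pair 2: with plain library totals its differences were -0.10 for *Mlana* and -0.56 for *Gpnmb* on the log2 scale, and all 6 genes were lower there. The size of the pair 2 differences moved as well, to -1.28 for *Pmel*, -1.63 for *Bace2*, -1.17 for *Cd63* and -1.61 for *Tspan10*. The median was then -1.22 over the 6 genes against -0.86 over all genes, of which 24.8% were higher in HPC. None of the 6 genes had groups of 3 that did not overlap, which 5.74% of genes tested had in either direction.

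**Figure D2:**
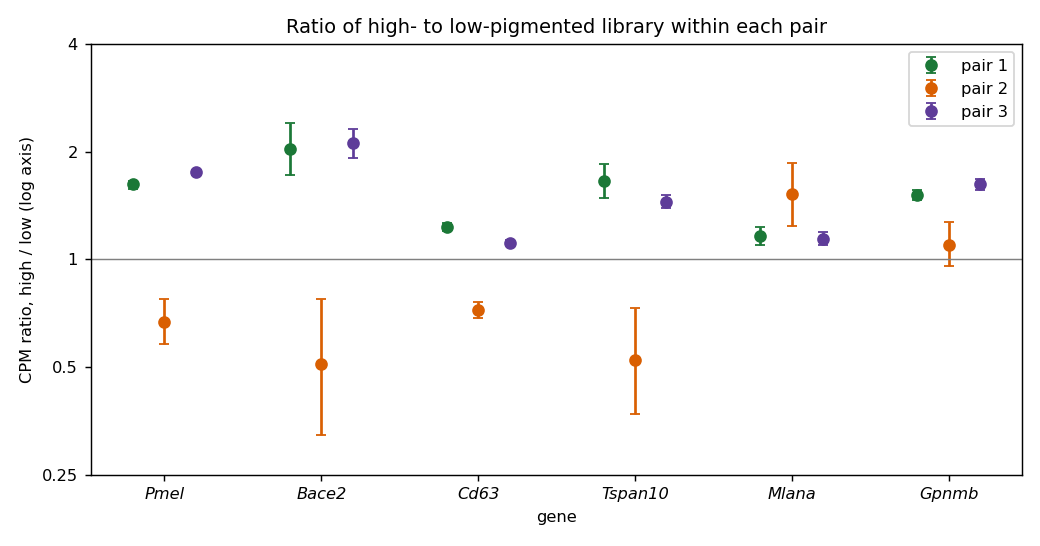
Ratio of the HPC to the LPC library of each pair for each gene, on a log axis with a line at 1 and exact binomial 95% intervals that cover counting error only. Pairs 1 and 3 lie above 1 for all 6 genes, and pair 2 lies below 1 for *Pmel*, *Bace2*, *Cd63* and *Tspan10*.

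The groups were compared over all 6 libraries with edgeR's quasi-likelihood test. None of the 6 genes passed an adjusted p under 0.05, and neither did any other gene (0% of 11324), with 38 genes and none of the 6 at an unadjusted p under 0.05. DESeq2 and limma-voom without pairing also called 0 genes. *Pmel* averaged 1983 ± 1746 CPM in HPC and 1213 ± 933 CPM in LPC (SD, n = 3 each), and its log2 fold change was 0.71 ± 1.06 (SE). That of *Bace2* was 0.78 ± 0.72 (SE), from 78.3 ± 64.7 CPM against 45.7 ± 20.3 CPM (SD, n = 3 each). The log2 fold change ± SE was 0.59 ± 0.85 for *Gpnmb*, 0.48 ± 1.06 for *Tspan10*, 0.23 ± 0.83 for *Mlana* and 0.07 ± 0.50 for *Cd63*. Each of the 6 had an adjusted p of 0.9996 in edgeR's test, so these differences are within the spread between libraries. The sign depended on single libraries: without the HPC library of pair 3 the values were -0.07 for *Pmel*, -0.03 for *Bace2*, -1.02 for *Tspan10*, -0.32 for *Cd63* and -0.20 for *Mlana*. Without the HPC library of pair 1 that of *Gpnmb* was -0.16, and without the LPC library of pair 2 those of *Cd63* and *Mlana* were -0.12 and -0.25.

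Without pair 2, and with the pair as a block in the same edgeR test, 4 of the 6 genes were called and higher in HPC, where 0.932% of 11906 genes tested were called in that direction. These were *Pmel*, with a log2 fold change of 0.74 ± 0.11 (SE, edgeR adjusted p 0.000811), *Bace2* (1.04 ± 0.17, edgeR adjusted p 0.00148), *Gpnmb* (0.64 ± 0.12, edgeR adjusted p 0.00482) and *Tspan10* (0.62 ± 0.13, edgeR adjusted p 0.0166). *Cd63* (0.21 ± 0.11, edgeR adjusted p 0.468) and *Mlana* (0.19 ± 0.12, edgeR adjusted p 0.569) were not called. This fit has 2 libraries a group, and the pair was left out with its opposite direction already known. The 6 genes were also chosen with earlier results known. The share over all genes is therefore a description, and no set test was run. Without the block, edgeR called 0 of the 6 and 0 of all 11906 genes in these 4 libraries.

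With all 6 libraries and the block, edgeR called 0 genes and the values were 0.32 for *Pmel*, 0.46 for *Bace2*, 0.48 for *Gpnmb*, 0.33 for *Mlana*, 0.16 for *Tspan10* and -0.006 for *Cd63* on the log2 scale. In limma-voom with the block and weights estimated for each library, 3 of the 6 were called and higher, where 0.238% of 11324 genes were. These were *Pmel* (0.73 ± 0.10, limma adjusted p 0.00517), *Gpnmb* (0.63 ± 0.10, limma adjusted p 0.0179) and *Bace2* (1.03 ± 0.18, limma adjusted p 0.0318). *Tspan10* (0.58 ± 0.14) did not pass there (limma adjusted p 0.107). The weighted values lay close to those without pair 2, and both fits rest on pairs 1 and 3, so they are not separate evidence. With equal weights for all 6 libraries, limma-voom with the block called 0 of 11324 genes, with *Pmel* at 0.63 ± 0.20 (limma adjusted p 0.952). With the block and pair 1 or pair 3 left out instead of pair 2, edgeR called none of the 6 and no other gene (0 of 11682 and 0 of 11510).

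**Figure D3:**
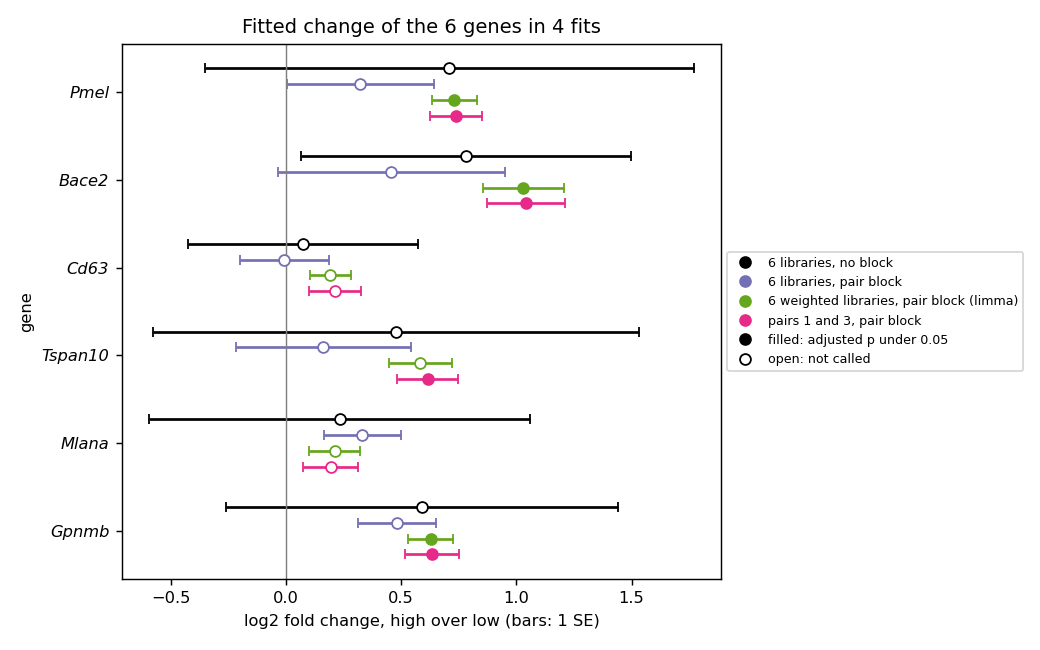
Log2 fold change of each gene, high over low, with bars of 1 SE, in 4 fits that differ in libraries, pairing and weights. Filled points have an adjusted p under 0.05: 4 genes in pairs 1 and 3 with the block, 3 in the weighted fit and 0 in the others.

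Other genes that act on PMEL are proteases and their partners, listed as 13 genes, all tested. None was called over 6 libraries, where the list median was 0.10 on the log2 scale against -0.04 over all genes. Without pair 2 and with the block, 9 of 13 were higher and the median was 0.245, against 0.001 over all genes. In pairs 1 and 3 with the block, 1 of 13 was called, *Apoe*, which encodes an apolipoprotein that loads onto intralumenal vesicles and aids PMEL fibril formation. *Apoe* measured 151 and 91.1 CPM in the HPC and LPC libraries of pair 1, 468 and 231 CPM in pair 3, and 133 and 206 CPM in pair 2. It rose by 0.87 ± 0.14 (log2 fold change ± SE, edgeR adjusted p 0.00106) in pairs 1 and 3. The gamma-secretase gene *Aph1c* was at 0.46 ± 0.16 in pairs 1 and 3 and was not called.

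Genes of endosomal sorting and intralumenal vesicles, the machinery that CD63 works beside, gave 0 calls of 12 in both fits, and their median in pairs 1 and 3 was -0.004 with 6 of 12 higher. *Sdcbp*, encoding syntenin and the most abundant of them, measured 961 and 941 CPM in pair 1, 446 and 455 CPM in pair 2, and 1160 and 1190 CPM in pair 3. Its log2 differences were 0.03, -0.03 and -0.04, so the populations differed far less than the pairs did. *Pdcd6ip* (ALIX) and *Vps37a* were at 0.29 ± 0.16 and 0.56 ± 0.20 in pairs 1 and 3 and were not called.

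Of 29 other tetraspanin genes 25 had a row, and 17 were tested over 6 libraries and 18 in pairs 1 and 3. In the latter 14 of 18 were higher and the median was 0.36, where 50.1% of all genes tested were higher and their median was 0.001. The 1 called was *Cd81*, the gene of a broadly expressed tetraspanin of extracellular vesicles, at 0.65 ± 0.14 (edgeR adjusted p 0.0153). It measured 245 and 169 CPM in pair 1 and 275 and 159 CPM in pair 3, but 22.7 and 153 CPM in pair 2. *Tspan13* and *Tspan7*, with the smallest unadjusted p over 6 libraries, differed most in pair 2, with log2 differences of 0.71, 4.88 and 0.59, and of 0.88, 2.98 and 0.46, in pairs 1, 2 and 3. Levels in the LPC library of pair 2 were low, at 2.0 CPM for *Tspan13* and 4.57 CPM for *Tspan7*. The HPC library of that pair had 68.7 and 38.4 CPM.

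Among 20 other melanosome genes 18 were tested, and 6 were called and higher in pairs 1 and 3, with 0 lower and a median of 0.42. Over all genes in that fit 0.932% were called and higher, and the median was 0.001. *Trpm1*, a channel gene that shelters a melanocyte microRNA, changed most, by 2.16 ± 0.18 (edgeR adjusted p 4.17e-08), from 46.9 and 10.6 CPM in pair 1, 57.0 and 36.3 CPM in pair 2 and 272 and 59.8 CPM in pair 3. *Oca2* and *Slc45a2*, whose products are needed for a near-neutral melanosome lumen, changed by 1.80 ± 0.35 and 0.76 ± 0.13. The transport genes *Mlph*, *Mreg* and *Myo5a* changed by 0.87 ± 0.17, 0.87 ± 0.18 and 0.61 ± 0.14. In pair 2 the list median was of opposite sign, at a log2 difference of -0.39, with 6 of 18 genes higher in HPC. Of all genes tested 40.8% were higher in that pair, with a median of -0.21. Of the 6 called genes, *Mlph* and *Myo5a* were lower in HPC there, with log2 differences of -1.09 and -0.20, while *Mreg* was at 3.40, *Oca2* at 1.17 and *Slc45a2* at 0.85. *Dct*, the most abundant of the list, was not called, at 0.14 ± 0.11.

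The regulators *Mitf*, *Tfeb*, *Tfe3*, *Sox10* and *Pax3* were tested, and 0 of 5 were called in either fit. All 5 were higher in the HPC library of pairs 1 and 3 and lower in that of pair 2, with medians of 0.19, 0.50 and -0.77. Over all genes tested the medians in pairs 1, 3 and 2 were 0.02, -0.002 and -0.21, and 40.8% were higher in pair 2. In pairs 1 and 3 with the block, *Tfe3* was at 0.52 ± 0.30, *Tfeb* at 0.62 ± 0.47 and *Pax3* at 0.10 ± 0.14. Of 13 lysosome genes tested, 1 was called there, the protease gene *Ctsb*, at 0.90 ± 0.14 (edgeR adjusted p 0.000811). *Ctsb* measured 317 and 194 CPM in pair 1, 106 and 160 CPM in pair 2, and 368 and 171 CPM in pair 3. In pairs 1 and 3 with the block, 12 of 13 lysosome genes were higher, with a median of 0.29 against 0.001 over all genes. In pair 2, 5 of 13 lysosome genes were higher in HPC, near the 40.8% of all genes tested. Their median log2 difference was -0.09, against -0.21 over all genes. *Ctsd*, the most abundant, was at 0.43 ± 0.12 and not called, and *Cd68*, which has 26.8 CPM in the HPC library of pair 2 and at most 3.9 CPM elsewhere, was at 0.86 ± 0.83.

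**Figure D4:**
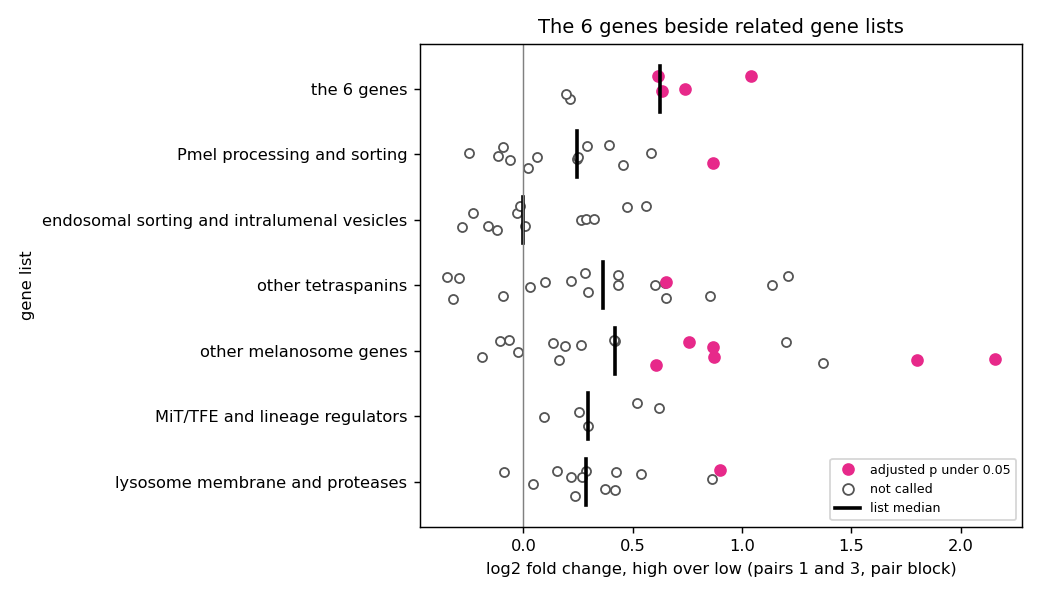
Log2 fold change of each tested gene, high over low, in pairs 1 and 3 with the pair block, for the 6 genes and 6 lists, with black lines at list medians. The 6 genes have a median of 0.63, the other melanosome genes 0.42 and the endosomal sorting genes -0.004.

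The 6 genes did not share a single profile over the libraries. Likeness was measured as the root mean square distance between log2 CPM profiles, each centred on its own mean, over 6 libraries that share pair effects, among genes with a mean of at least 10 CPM. Its smallest values for *Pmel*, whose own profile had a standard deviation of 1.74, were 0.29 with *Eogt*, 0.34 with *Cyp2j6* and 0.35 with *Dhrs4*. *Mlana* was the nearest of the other 5 genes to *Pmel*, at 0.63, followed by *Tspan10* at 0.74, *Gpnmb* at 0.86, *Bace2* at 0.94 and *Cd63* at 1.25. *Bace2* was nearest to *Ephx1* (0.18), the melanosome transport gene *Mlph* (0.21) and *Snx1* (0.27). *Tspan10* was near to *Mitf* (0.39) and *Cyp2j6* (0.46). *Mlana* was nearest to *Pogz* (0.16), *Chmp6* (0.18) and *Atg2a* (0.19), and *Gpnmb* was near to *Uba3* (0.28) and *Ldhb* (0.31). The flat profile of *Cd63*, with a standard deviation of 0.54, was nearest to *Slc39a9* (0.07), *Dusp12* (0.07) and *Orai3* (0.08).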

How the data were processed

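Libraries were made with a kit that reads mRNA from the 3′ end (QuantSeq forward) and sequenced on an Illumina instrument, per the labels' protocols. The authors deposited raw read counts for each gene, which HTSeq produced according to the table's name. STAR and GRCm38 are named in the submitters' processing notes. The annotation, versions and use of strand are not given in the sources used here. Rows were matched by mouse symbol, since the human symbol column lists *Cd63* under ROM1, as it does 5 other rows. Tally rows for reads of no feature (12.4% to 29.5% of tallied reads) or ambiguous reads (0.487% to 2.51%) were left out.

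Tests used edgeR 4.0.16 in R 4.3.3 (filterByExpr with a minimum count of 10, TMM, robust glmQLFit and glmQLFTest, 2 groups, no covariate) with Benjamini-Hochberg adjustment over all genes. DESeq2 1.42.0, limma-voom (limma 3.58.1), the pair block and other scalings, filters and libraries were alternatives. CPM used TMM-scaled sizes, and log2 differences a prior count of 2. For edgeR fits the SE was worked back from the test, as the absolute log2 fold change over the square root of the quasi-likelihood F. The fits were tested on simulated data. Sequence similarity was searched with BLAST 2.17.0. The deviations of an HPC and an LPC library from their groups' means correlated across genes where the title suffix is shared (0.466, 0.316 and 0.422, over the minimum of 0.1), so that suffix defines the pairs. No 2 libraries of a group agreed within sampling noise. Named genes were the 6, the most abundant gene and the 2 with the smallest p of each list, genes of a list called without pair 2, and the 3 most alike profiles. Some genes that this rule names are not reported here. The 6 genes, lists and alternatives were chosen with earlier results of these data known.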

Additional observations from a re-analysis of the deposited data

Results flagged for a closer look

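Reads outside the gene rows were present in every library. Reads of no feature made up at most 29.5% of tallied reads and ambiguous reads at most 2.51%. The library with the most reads of no feature is the HPC one of pair 2, which also has the lowest summed share of the 6 genes; their part in that share was not tested.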

How the results depend on the processing

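The count of genes called was 0 in the comparison as reported and 0 in every alternative set out at the start but 2. It was 155 with pair 2 left out and the replicate block, of which 4 of the 6 genes were part, and 34 in limma-voom with sample weights and the block, of which 3 were part. The alternatives set out at the start were themselves chosen with earlier results of these data known. In alternatives added after the data were seen, all without pair 2 and with the block, the count was 123 with DESeq2, 354 with limma-voom and 102 with plain library totals, each with 4 of the 6 genes. The 2 added ones left, edgeR on pairs 1 and 3 without the block and limma-voom with the block on all libraries at equal weights, gave 0. Leaving out single libraries gave 0 genes, and moved the median log2 fold change of the 6 genes between -0.14 and 1.04, the lowest without the HPC library of pair 3.

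Log2 fold changes of opposite sign to that over 6 libraries without the block were as follows. With the replicate block they were -0.006 for *Cd63*, -0.30 for *Cd81* and -0.058 for *Dct*. With the block and without pair 1 they were -0.15, -0.90 and -0.16 for these, -0.15 for *Tspan10* and -0.21 for *Mlph*. With the block and without pair 3 they were -0.081, -1.03 and -0.15, -0.065 for *Tspan10* and 0.008 for *Sdcbp*. In limma-voom without the block they were -0.002, -0.27 and -0.059, and 0.27 for *Tfeb*. *Pax3* was at 0.10 in edgeR without pair 2, with and without the block, 0.081 in the weighted fit, and, without pair 2 and with the block, 0.11 with DESeq2, 0.10 with limma-voom and 0.10 with library totals. *Tfeb* was at 0.62, 0.62, 0.60, 0.62, 0.69 and 0.62 in the same fits and at 0.16 in limma-voom with the block. Without single libraries the ranges that crossed 0 were -0.069 to 1.35 for *Pmel*, -0.026 to 1.26 for *Bace2*, -0.32 to 0.40 for *Cd63*, -1.02 to 1.82 for *Tspan10*, -0.25 to 0.71 for *Mlana*, -0.16 to 1.33 for *Gpnmb*, -0.32 to 0.82 for *Apoe*, -0.26 to 0.70 for *Cd81*, -0.54 to 0.48 for *Dct*, -0.23 to 1.12 for *Mlph*, -0.17 to 0.65 for *Myo5a*, -0.37 to 0.30 for *Pax3*, -0.32 to 0.30 for *Sdcbp*, -0.012 to 0.71 for *Tfe3* and -0.84 to 0.45 for *Tfeb*. The cause was not tested. Depth limits *Bace2* and *Tspan10* in pair 2, with 28 and 45 counts in the HPC library.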
